A study of Mus musculus with 9 samples.

Results

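The immunity-related GTPases (IRGs) are a family of interferon-inducible GTPases, and 7 of their genes were followed here in mouse limb cultures given caspase inhibitors: Irgm1, Irgm2, Igtp, Iigp1, Ifi47, Tgtp1 and Tgtp2. They were chosen by gene symbol in the authors' deposited count table, where 7 of 7 were found among 52550 genes. RNA came from micromass cultures, dense drops of cells from mouse forelimbs of embryonic day 12, grown in a chondrogenic medium. The groups were Q-VD-OPH at 100 µM (OPH, 3 libraries), Z-VAD-FMK at 100 µM (FMK, 3 libraries) and the vehicle DMSO (3 libraries), each harvested after 6 days of treatment. Both agents block caspases broadly. Z-VAD-FMK is a valine-alanine-aspartate peptide with a fluoromethyl ketone end, and Q-VD-OPH is a valine-aspartate peptide with a quinoline cap and a difluorophenoxy methyl ketone end. The labels give neither the mouse strain nor a genotype, and they call the 3 cultures of a condition biological replicates without saying whether they came from separate litters. The study asked which transcripts of cartilage-forming cells change when caspases are inhibited.

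Library totals were 5659789 to 6867350 counts, and 13255 genes passed the filter on low counts. Each count stands for the 3' end of a polyadenylated transcript, so levels of different genes can be set side by side without dividing by length. The labelled cell type is the chondroblast. The 8 cartilage markers together had 1305 to 2221 CPM (counts relative to a scaled library size) with OPH, 1354 to 1450 CPM with FMK and 2679 to 3884 CPM with DMSO, and none of the 8 was at 0 in any group. Macrophages were also present. Their 14 markers summed to 203.1 to 228.1 CPM with OPH, 27.9 to 42.2 CPM with FMK and 1263 to 2483 CPM with DMSO, again with none at 0. In bulk RNA, fewer cells of a type and less RNA per cell cannot be told apart.

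IRG proteins bind membranes of vacuoles that hold intracellular parasites and bacteria, and they bear on autophagy and on the turnover of mitochondria and lipid droplets. The family falls into regulators, whose nucleotide-binding loop carries a methionine in place of the usual lysine, and effectors, which keep the lysine. The regulators Irgm1, Irgm2 and Igtp sit on the cell's own membranes and hold the effectors there in the inactive, GDP-bound form. The effectors Iigp1, Ifi47, Tgtp1 and Tgtp2 load onto pathogen vacuoles and take part in breaking them. In most mouse cells the genes are nearly silent until type I or type II interferon signals through STAT and IRF factors to interferon-stimulated response elements (ISRE) and gamma-activated sites (GAS) in their promoters.

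Of the 7 genes, 6 lie on chromosome 11 in GENCODE M21 (GRCm38, the mm10 assembly), and all 7 are annotated as protein coding. One cluster holds Irgm1 (ENSMUSG00000046879, 48861968 to 48871683, minus strand), Tgtp1 (ENSMUSG00000078922, 48985327 to 48994172, minus strand), Tgtp2 (ENSMUSG00000078921, 49057194 to 49064206, minus strand) and Ifi47 (ENSMUSG00000078920, 49076587 to 49096974, plus strand). The gaps between neighbours are 113.6 kb, 63.02 kb and 12.38 kb. A second pair, Igtp (ENSMUSG00000078853, 58199556 to 58207591, plus strand) and Irgm2 (ENSMUSG00000069874, 58199618 to 58222782, plus strand), begins 9103 kb beyond Ifi47. Iigp1 (ENSMUSG00000054072) lies on another chromosome. The annotated gene models of Igtp and Irgm2 overlap, but their shared exon sequence of 162 bases lies outside the last 300 exon bases of both, where a 3' end library reads. Tgtp1 and Tgtp2 are near copies. Their transcripts were 99.8% identical over 2810 aligned bases and 100% identical over the last 300. No other pair of members shared more than 10 bases in a row within the last 300.

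Promoters are shown because the members moved together with the inhibitors. RefSeq promoters (GRCm38.p6, 250 bases before to 50 bases after each start) were matched for 6 members. They were searched on both strands for the ISRE core (GAAA, any 2 bases, GAAA), which 3.44% of 32851 mouse promoters hold, and for the GAS pattern TTCNNNGAA, which 8.3% hold. The stretches around the matches, each of 80 bases read 5′ to 3′ along the gene, follow, with the letters of both patterns in capitals.
Irgm2 (chr11:58214878-58214957, plus strand): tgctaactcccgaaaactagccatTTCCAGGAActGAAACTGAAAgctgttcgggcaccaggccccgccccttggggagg
Igtp (chr11:58199487-58199566, plus strand): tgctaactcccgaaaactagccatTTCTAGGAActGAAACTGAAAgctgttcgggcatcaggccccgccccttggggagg
Tgtp1 (chr11:48992279-48992358, minus strand): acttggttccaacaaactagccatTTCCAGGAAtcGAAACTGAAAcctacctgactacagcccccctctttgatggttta
Tgtp2 (chr11:49064238-49064317, minus strand): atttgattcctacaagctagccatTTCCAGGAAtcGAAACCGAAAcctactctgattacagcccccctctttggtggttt
Irgm1 (chr11:48871403-48871482, minus strand): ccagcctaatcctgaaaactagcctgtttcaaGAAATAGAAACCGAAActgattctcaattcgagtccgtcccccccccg

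In Irgm2, Igtp, Tgtp1 and Tgtp2 a GAS match ended 2 bases before an ISRE core match. The ISRE core began 64, 34, 77 and 70 bases before the RefSeq start of these genes in that order. Exactly this spacing, a pattern chosen after the members' promoters were seen, was found on the gene's strand in 5 of 32851 promoters (0.015%). They were those of the same 4 members and of Gm12185, which overlaps Tgtp1 on the same strand. Whether the Gm12185 and Tgtp1 entries hold the same stretch of the genome was not checked, so the pair may be counted there more than once. The Irgm1 promoter held no GAS match and a pair of overlapping ISRE core matches that began 30 and 24 bases before its start. The Ifi47 window held neither pattern. Irgm2 and Igtp were alike over much of their promoters (92.1% identical over 265 aligned bases), and so were Tgtp1 and Tgtp2 (80.5% over 272). These matches describe letters and not binding.

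All 3 regulators were low with DMSO and abundant with either inhibitor. Irgm1 had 216.6, 202.5 and 185.9 CPM with OPH and 284.2, 277.8 and 276.1 CPM with FMK, against 19.6, 18.4 and 16.9 CPM with DMSO. No 2 groups overlapped, and FMK was the highest. Irgm2 had 219.6, 226.1 and 179.6 CPM with OPH and 209.6, 251.5 and 153.9 CPM with FMK, against 16.3, 11.5 and 7.7 CPM with DMSO. Igtp, the regulator also known as Irgm3, had 393.0, 368.3 and 309.8 CPM with OPH and 410.5, 440.6 and 303.3 CPM with FMK, against 20.1, 12.9 and 6.98 CPM with DMSO. For Irgm2 and Igtp the inhibitor groups overlapped each other and stood clear of DMSO, and library 3 was the lowest of every group.

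Among the effectors, Iigp1 and Ifi47 were abundant with inhibitor and the Tgtp pair had few counts. Iigp1, whose product coats the vacuole of Toxoplasma, had 1064, 888.3 and 838.8 CPM with OPH and 1174, 1106 and 809.3 CPM with FMK, against 44.3, 22.9 and 11.3 CPM with DMSO. It was the most abundant member in 8 of 9 libraries. Ifi47 had 236.0, 227.5 and 220.7 CPM with OPH and 340.4, 361.2 and 281.6 CPM with FMK, against 6.38, 8.06 and 5.09 CPM with DMSO. As for Irgm1, no groups overlapped and FMK was the highest. Tgtp1 had 11, 5 and 6 counts with OPH and 17, 27 and 14 counts with FMK, against 0, 0 and 2 counts with DMSO. Tgtp2 had 7, 3 and 0 counts with OPH and 5, 17 and 0 counts with FMK, against 0, 1 and 0 counts with DMSO.

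**Figure D1:**
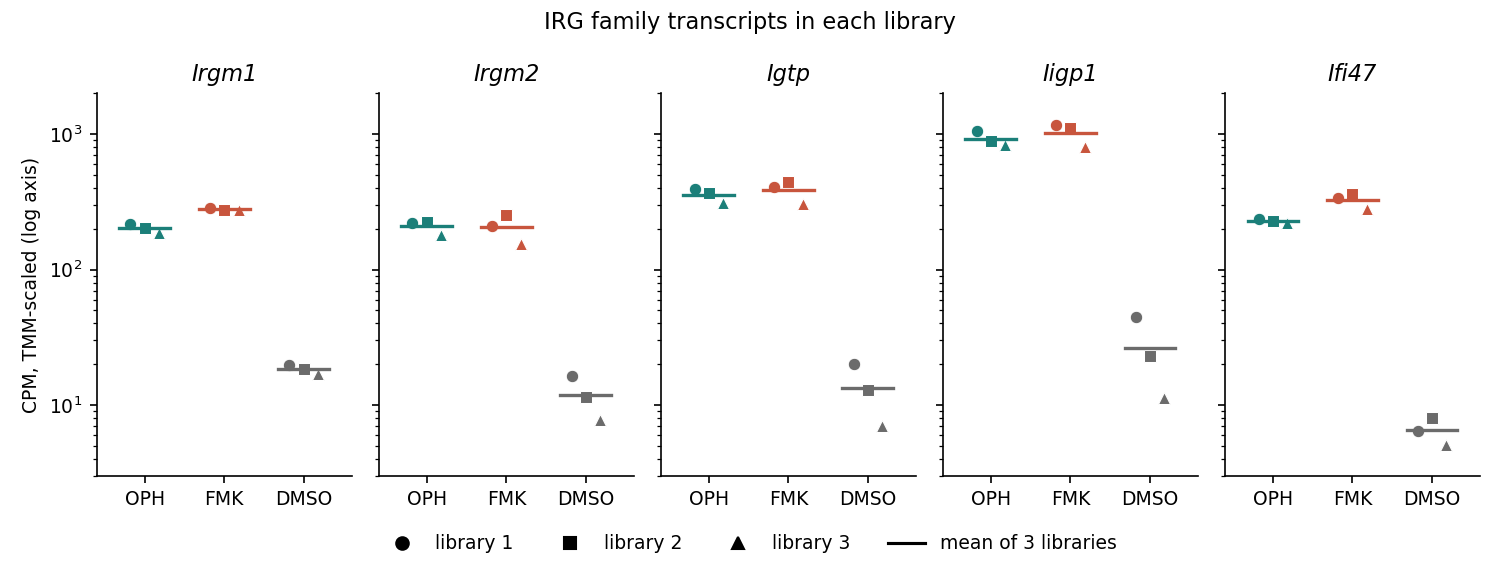
Level of the 5 abundant IRG members in every library, in CPM on a log axis, with a symbol for each of the 3 libraries and a line at the mean of each group. They lie between 153.9 and 1174 CPM with either inhibitor and between 5.09 and 44.3 CPM with DMSO.

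The comparison of FMK with DMSO showed a rise of the 5 abundant members, by 15.3 to 50.3 times in the ratio of group means, with the smallest ratio for Irgm1 and the largest for Ifi47. The spread between libraries was small against these differences. In edgeR's quasi-likelihood test with Benjamini-Hochberg adjustment over 13255 genes, Irgm1 rose by 3.93 ± 0.10 on the log2 scale (SE, 3 libraries a group, adjusted p = 1.75e-14) and Ifi47 by 5.66 ± 0.15 (adjusted p = 1.75e-14). They had the smallest and the second smallest p of all genes tested. Irgm2 rose by 4.12 ± 0.30 (adjusted p = 5.11e-05), Igtp by 4.86 ± 0.36 (adjusted p = 0.000138) and Iigp1 by 5.30 ± 0.49 (adjusted p = 0.000557). The size for Iigp1 depends on single DMSO libraries. Without DMSO replicate 1, Iigp1 rose by 5.92 and stood above Ifi47 at 5.65. Without DMSO replicate 3, Iigp1 rose by 4.94. Irgm2, Igtp and Iigp1 also had the wider spread among DMSO libraries, where the coefficient of variation was 36.6%, 49.2% and 63.9%, against 7.52% for Irgm1 and 22.9% for Ifi47. Of all genes tested, 20.6% changed with FMK, 10.4% upward and 10.1% downward, around a median of -0.006 on the log2 scale. The median of the 5 abundant members was 4.86. Scaling by library size alone moved the split of all genes called to 1012 higher and 1938 lower, against 1383 higher and 1341 lower in the reported fit, and left these 5 members called higher.

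The comparison of OPH with DMSO used the same DMSO libraries, so the results of both inhibitors are not independent of each other. All 5 abundant members rose here too, by 11 to 35.5 times in the ratio of means. Ifi47 rose by 5.13 ± 0.14 on the log2 scale (edgeR, adjusted p = 1.02e-13) and Irgm1 by 3.46 ± 0.10 (adjusted p = 1.02e-13), again with the smallest and the second smallest p of all genes. Iigp1 rose by 5.15 ± 0.49 (adjusted p = 0.000859), Igtp by 4.75 ± 0.36 (adjusted p = 0.000226) and Irgm2 by 4.14 ± 0.30 (adjusted p = 8.31e-05). Of all genes, 16.7% changed with OPH, 8.61% upward and 8.11% downward, around a median of -0.002. The median of the 5 abundant members was 4.75. Without DMSO replicate 1, Iigp1 rose by 5.77, and without DMSO replicate 3 by 4.79.

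**Figure D2:**
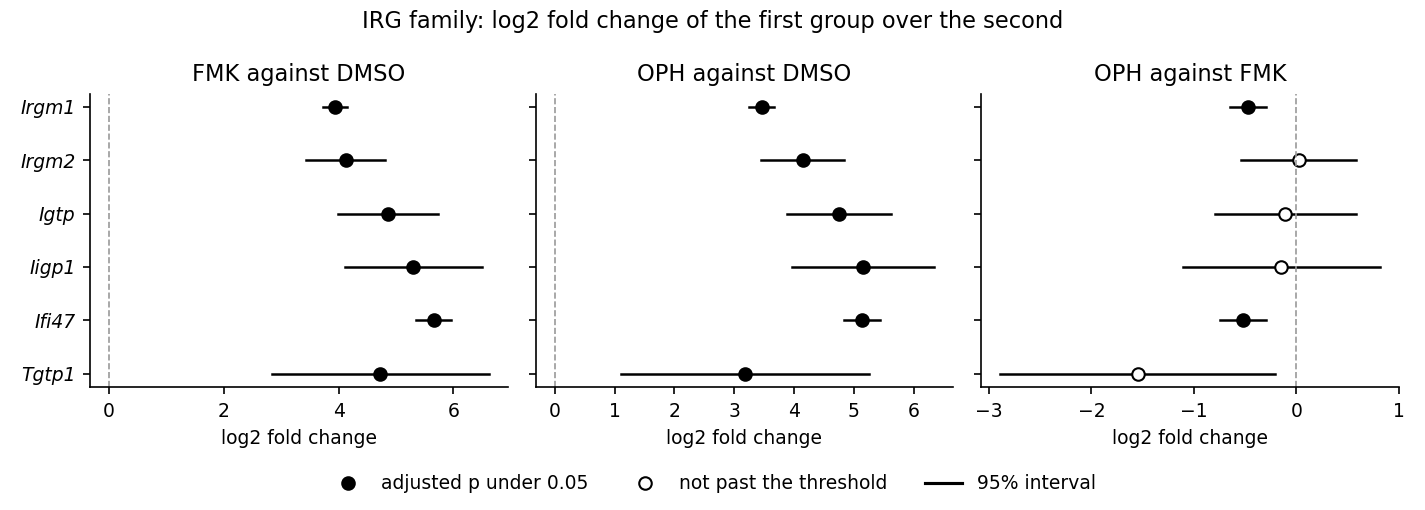
Log2 fold change of each tested member with its 95% interval, for FMK against DMSO, OPH against DMSO and OPH against FMK, with open symbols where the threshold was not passed. Against DMSO the abundant members lie between 3.46 and 5.66, while in OPH against FMK only Irgm1 and Ifi47 pass the threshold, at -0.47 and -0.52, and Tgtp1, at -1.55, has the widest interval.

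Set against FMK at the same dose and time, OPH gave lower levels of 2 members, 1 regulator and 1 effector. This is a single pair of compounds, tested gene by gene. Irgm1 averaged 201.7 ± 15.4 CPM with OPH and 279.4 ± 4.29 CPM with FMK (SD, n = 3 each), lower by 0.47 ± 0.09 on the log2 scale (edgeR, 95% interval -0.65 to -0.29, adjusted p = 0.00214). Ifi47 averaged 228.1 ± 7.65 CPM with OPH and 327.7 ± 41.3 CPM with FMK, with a difference of -0.52 ± 0.11 on the log2 scale (95% interval -0.75 to -0.30, adjusted p = 0.0052). In both genes every OPH library was below every FMK library. The other 3 abundant members showed no difference that passed the threshold. In the reported fit, which has no term for the library number, their intervals still allow one of moderate size. The log2 fold change was 0.02 for Irgm2 (95% interval -0.54 to 0.59), -0.11 for Igtp (-0.80 to 0.58) and -0.15 for Iigp1 (-1.11 to 0.82). With a block for the library number, the intervals were -0.16 to 0.25 for Irgm2, -0.4 to 0.21 for Igtp and -0.86 to 0.6 for Iigp1. Thus 0 of the 5 abundant members were higher and 2 were lower, where 8.86% of all genes were called, 4.2% higher and 4.66% lower. With library size alone as the scaling, the split of all genes called was 1103 higher and 385 lower, against 557 higher and 618 lower, and the same 2 members were called lower. That scaling moved the median of all genes to 0.12 in this comparison and to -0.11 in that of FMK with DMSO.

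Tgtp1 and Tgtp2, which encode an effector first described in T cells and among the earliest to load onto the vacuole of Toxoplasma, gave few counts in these cultures. Summed over its FMK libraries Tgtp1 had 58 counts, against 2 over the DMSO libraries, which is 31.4 times as many per scaled library (95% counting interval 8.31 to 265.5). With OPH it had 22 counts, a ratio of 10.5 to DMSO (2.59 to 92.4) and of 0.335 to FMK (0.195 to 0.557). These intervals cover counting error only. Tgtp1 passed the filter only through its FMK libraries, where it had to be high, and its adjusted p was 0.000928 for FMK against DMSO, 0.034 for OPH against DMSO and 0.148 for OPH against FMK (edgeR). The call with OPH was lost without OPH replicate 1 or 3, FMK replicate 2 or DMSO replicate 1 or 2 (adjusted p = 0.0518 to 0.123). DMSO replicate 3 held both DMSO counts, and without it the fitted sizes, 5.81 with OPH and 7.36 with FMK against 3.18 and 4.73 with it, depend on the prior count. Tgtp2 did not pass the filter and was not tested in the reported fit. Over a group it had 22 counts with FMK and 1 with DMSO (ratio 23.8, interval 3.85 to 983.5), and 10 with OPH (ratio 9.58 to DMSO, interval 1.36 to 415.7).

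**Figure D3:**
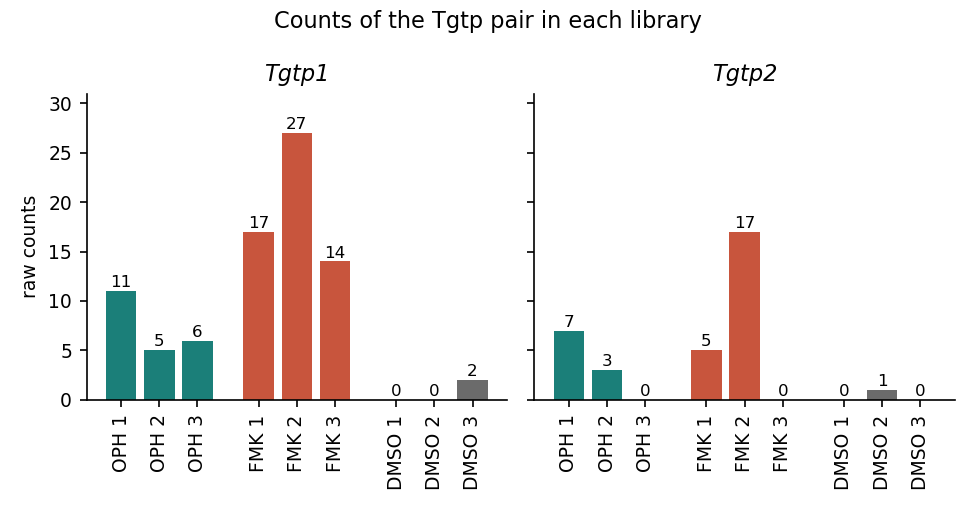
Raw counts of Tgtp1 and Tgtp2 in each of the 9 libraries. The highest bars are those of FMK replicate 2, at 27 and 17 counts, and no DMSO library has more than 2.

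Since the last 300 bases of the Tgtp1 and Tgtp2 transcripts are identical, a read there cannot be placed on either gene by its letters, and how such reads were counted is not given in the sources used here. Their separate values are uncertain for that reason. If reads with several matches were dropped, the sum, rank and pool share of the pair would be too low as well. Low expression of the pair and uncounted reads therefore cannot be told apart here. Summed as 1 gene, they rose with FMK by 4.66 ± 0.82 on the log2 scale (edgeR, adjusted p = 0.000468) and with OPH by 3.19 ± 0.88 (adjusted p = 0.0182), while OPH against FMK gave -1.47 ± 0.59 (adjusted p = 0.14). Like Tgtp1, the sum passed the filter only through its FMK libraries, where it had to be high. Its adjusted p carry the same limit.

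As a pool, the 7 transcripts made up 0.177% to 0.219% of all counts with OPH and 0.175% to 0.231% with FMK, against 0.00492% to 0.0108% with DMSO. Their summed level was 1927 ± 198.1 CPM with OPH and 2231 ± 350.3 CPM with FMK, against 76.3 ± 29.3 CPM with DMSO (SD, n = 3 each). Within the pool the balance of regulators and effectors was not the same in all groups. Irgm1, Irgm2 and Igtp together held 38.9%, 41.6% and 38.9% of the IRG counts with OPH and 37.3%, 39.7% and 40.1% with FMK, against 52.5%, 57.9% and 65.4% with DMSO. Each inhibitor library had a smaller regulator share than any DMSO library. The mean difference from DMSO was -18.8 points with OPH and -19.5 points with FMK. The two-sided exact permutation test gave p = 0.1 for each, the smallest value that 3 libraries against 3 can give, so neither can pass a threshold of 0.05. Without Iigp1 the differences were -9.47 points with OPH and -14 points with FMK. OPH and FMK differed by 0.763 points, with overlapping groups (exact p = 0.6), but by 4.55 points without Iigp1, then with no overlap (exact p = 0.1).

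The order of the members by level also differed between groups. With OPH the order was Iigp1, Igtp, then Ifi47, Irgm2 and Irgm1, of which neighbours overlapped, then Tgtp1 and Tgtp2. With FMK it was Iigp1, then Igtp, Ifi47 and Irgm1, of which neighbours overlapped, then Irgm2, and last the Tgtp pair. With DMSO the first 5 were Iigp1, Irgm1, Igtp, Irgm2 and Ifi47, and only Ifi47 stood clear of the Tgtp pair below it, the others overlapping the next in order. Ifi47 was thus the lowest of the 5 abundant members with DMSO, at 6.51 ± 1.49 CPM. It held 11.1% to 12.7% of the IRG counts with OPH and 14.1% to 15.4% with FMK, against 5.98% to 10.9% with DMSO. Iigp1 held 46.4% to 49.9% with OPH and 44.3% to 48.5% with FMK, against 23.5% to 41.5% with DMSO. In DMSO library 3, the only library where Iigp1 was not the first, Irgm1 held 34.9% of the pool.

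**Figure D4:**
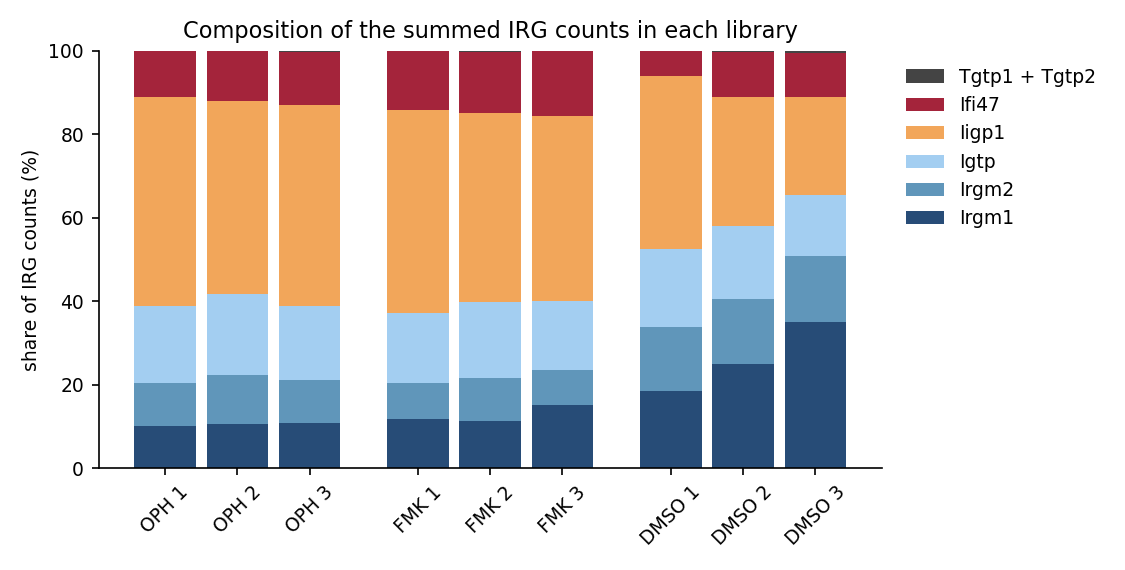
Share of each member in the summed IRG counts of every library, in percent, with the libraries of OPH, FMK and DMSO in that order. The regulators take 37.3% to 41.6% in the inhibitor libraries and 52.5% to 65.4% in the DMSO libraries.

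The genes with the profile most like the family's were other interferon-stimulated genes. Likeness was the root mean square difference in log2 CPM over the 9 libraries, after centring each gene on its mean. It was taken from the average of the 6 tested members, Tgtp1 among them. At its few counts the log2 CPM of Tgtp1 depends on the prior count, and a ranking without Tgtp1 was not made. The nearest was Ifit2, an RNA-binding antiviral protein gene, at 0.123. Then came Gbp2, a guanylate-binding protein gene, at 0.165, and Bst2, which encodes tetherin, at 0.189. Ifi202b (0.249), Gbp9 (0.272), Tap1 (0.276), Ifi204 (0.295), Oas1b (0.296), Ifih1 (0.301) and Gbp3 (0.319) followed. The members themselves lay at 0.245 for Irgm2, 0.34 for Irgm1, 0.355 for Igtp, 0.512 for Ifi47, 0.607 for Iigp1 and 1.05 for Tgtp1. Iigp1 and Igtp were each other's nearest member (0.279). The tested members were averaged to make that profile, so these distances describe and test nothing.

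Of 11 other IRG loci, 8 were tested. With FMK 6 rose and 0 fell (median log2 fold change 3.99), and with OPH 5 rose and 0 fell (4.07). Of all genes tested, 10.4% rose and 10.1% fell with FMK, and 8.61% rose and 8.11% fell with OPH. Between OPH and FMK 0 differed, where 8.86% of all genes did. In a list this short, 0 is near that share. F830016B08Rik had 31.5 CPM with OPH and 39.0 CPM with FMK, against 0.938 CPM with DMSO, and rose with FMK by 5.37 ± 0.31 (edgeR, adjusted p = 2.32e-09) and with OPH by 5.06 ± 0.32 (adjusted p = 8.47e-09). Gm4841 rose by 4.39 ± 0.37 with FMK and 4.26 ± 0.37 with OPH, and Gm4951 by 3.61 ± 0.48 and 3.88 ± 0.48 in that order. Gm12250, the effector gene Irgb10, had 139 counts with OPH and 98 with FMK, against 3 with DMSO. Its ratio to DMSO was 44.4 with OPH (95% counting interval 14.9 to 217.8) and 35.4 with FMK (11.8 to 174.5). Gm12185, whose promoter entry holds the spaced pair of sites, had 35 counts with OPH and 39 with FMK, against 1 with DMSO. It shares 223 exon bases with Tgtp1 on the same strand. F830016B08Rik, Gm4841, Gm12250 and Gm12185 passed the filter on low counts only through the inhibitor libraries, where they had to be high. Their calls, and their part in the counts above, carry the limit given for Tgtp1. The sixth to rise with FMK was 9930111J21Rik2, by 1.99 ± 0.57 (adjusted p = 0.0287), while with OPH its value was 0.51 ± 0.60 (adjusted p = 0.654). Irgq, an IRG-like gene, had 31.6 CPM with OPH and 33.1 CPM with FMK, against 36.4 CPM with DMSO, and was called in neither comparison with DMSO, nor was Gm5431.

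The guanylate-binding and MX proteins are interferon-induced GTPases that act beside the IRGs, and 11 of 14 were tested. With FMK 10 rose and 0 fell (median 4.63), and with OPH 11 rose and 0 fell (4.64). Of all genes tested, 10.4% rose and 10.1% fell with FMK, and 8.61% rose and 8.11% fell with OPH. Between OPH and FMK 0 differed, where 8.86% of all genes did. In a list this short, 0 is near that share. Gbp3 averaged 211.6 CPM with OPH and 221.1 CPM with FMK, against 6.99 CPM with DMSO, a rise of 4.98 ± 0.15 with FMK (edgeR, adjusted p = 2.32e-13). Gbp2 rose with FMK by 4.33 ± 0.20 and Gbp9 by 4.60 ± 0.29. Gbp2b, Gbp4, Gbp5, Gbp8, Gbp11 and Mx1 passed the filter on low counts only through inhibitor libraries, where they had to be high. Their part in the counts above carries the limit given for Tgtp1.

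The upstream list of interferon ligands, receptors and transducers had 18 of 19 genes tested. With FMK 13 rose and 2 fell (median 1.11), and with OPH 11 rose and 1 fell (0.84). Among all genes, 10.4% rose and 10.1% fell with FMK, and 8.61% rose and 8.11% fell with OPH. Both medians of the list are the same with Ifnb1 at its lower bound. Ifnb1, the gene of interferon beta, had 25, 21 and 34 counts with OPH and 66, 75 and 49 counts with FMK, against 0 in each DMSO library. Taken against 3 counts over the DMSO group, it was at least 25.5-fold higher with OPH and at least 68.6-fold higher with FMK. The edgeR fit, which is separate from these bounds, gave adjusted p = 1.44e-05 with OPH and 4.27e-07 with FMK. Ifnb1 passed the filter only through the inhibitor libraries, where it had to be high. OPH was lower than FMK by 1.40 ± 0.36 on the log2 scale (adjusted p = 0.0249), with no overlap. Ifng, the gene of type II interferon, had 0 counts in 9 of 9 libraries, which allows up to 0.0518 CPM over all of them.

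Stat2, Irf9 and Irf1, which encode factors that carry interferon signals to promoters, rose with both inhibitors. Stat2 averaged 311.2 CPM with OPH and 333.4 CPM with FMK, against 32.2 CPM with DMSO, rising by 3.28 ± 0.17 with OPH (edgeR, adjusted p = 2.79e-07) and 3.37 ± 0.17 with FMK (adjusted p = 1.47e-07). Irf9, which brings the type I interferon complex to the ISRE, rose by 2.25 ± 0.11 and 2.09 ± 0.11, and Irf1 by 1.63 ± 0.14 and 1.98 ± 0.14, OPH before FMK. Usp18, a brake on the type I receptor, rose by 5.02 ± 0.21 with OPH and 5.20 ± 0.22 with FMK. Of the genes that fell, Irf8 had 2.92 CPM with OPH and 1.14 CPM with FMK, against 12.4 CPM with DMSO. Ifngr1, a receptor chain for type II interferon, fell by 0.36 ± 0.12 with FMK (adjusted p = 0.0433). Between OPH and FMK, 0 genes of the list were higher and 2 were lower, where 4.2% and 4.66% of all genes were. The 2 were Ifnb1 and Socs3, a feedback inhibitor of cytokine signals (-1.48 ± 0.17, edgeR, adjusted p = 0.000203).

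Genes of the autophagy machinery that IRGs work with had medians near 0. ATG8 proteins and the enzymes that attach them to lipids are needed to place IRGs on the right membranes. Of these 11 genes, 1 rose and 3 fell with FMK (median -0.12), and 1 rose and 2 fell with OPH (-0.06). Of all genes tested, 10.4% rose and 10.1% fell with FMK, and 8.61% rose and 8.11% fell with OPH. The rises in this list are near those shares, and counts this small describe single genes and not the list. Gabarapl1 rose by 0.40 ± 0.09 with OPH and 0.38 ± 0.09 with FMK. Gabarap fell by 0.32 ± 0.08 with OPH and by 0.28 ± 0.08 with FMK. Map1lc3a fell by 0.32 ± 0.09 with OPH, and Map1lc3b and Gabarapl2 fell by 0.31 ± 0.09 and 0.55 ± 0.18 with FMK. No gene of this list differed between OPH and FMK at the threshold, where 8.86% of all genes did.

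Of 10 ubiquitin ligases, adaptors and galectins that gather at IRG-coated or damaged vacuoles, 5 rose and 0 fell with FMK (median 0.56), and 6 rose and 0 fell with OPH (0.59). Among all genes, 10.4% rose and 10.1% fell with FMK, and 8.61% rose and 8.11% fell with OPH. Rnf213, a giant ubiquitin ligase, averaged 298.5 CPM with OPH and 304.5 CPM with FMK, against 23.2 CPM with DMSO (3.69 ± 0.14 and 3.72 ± 0.14). Trim21 rose by 2.72 ± 0.26 with OPH and 3.00 ± 0.26 with FMK. The adaptor gene Sqstm1 rose by 1.13 ± 0.08 and 0.86 ± 0.08, Lgals8 by 0.77 ± 0.12 and 1.18 ± 0.12, and Tax1bp1 by 0.41 ± 0.09 and 0.32 ± 0.09, OPH before FMK. Optn rose with OPH, by 0.82 ± 0.27 (adjusted p = 0.045). OPH against FMK was higher for Sqstm1 (0.28 ± 0.08, edgeR, adjusted p = 0.0424) and lower for Lgals8 (-0.41 ± 0.11, adjusted p = 0.0292) and Lgals3 (-1.15 ± 0.27, adjusted p = 0.0427). Of all genes, 4.2% were higher and 4.66% were lower in that comparison.

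**Figure D5:**
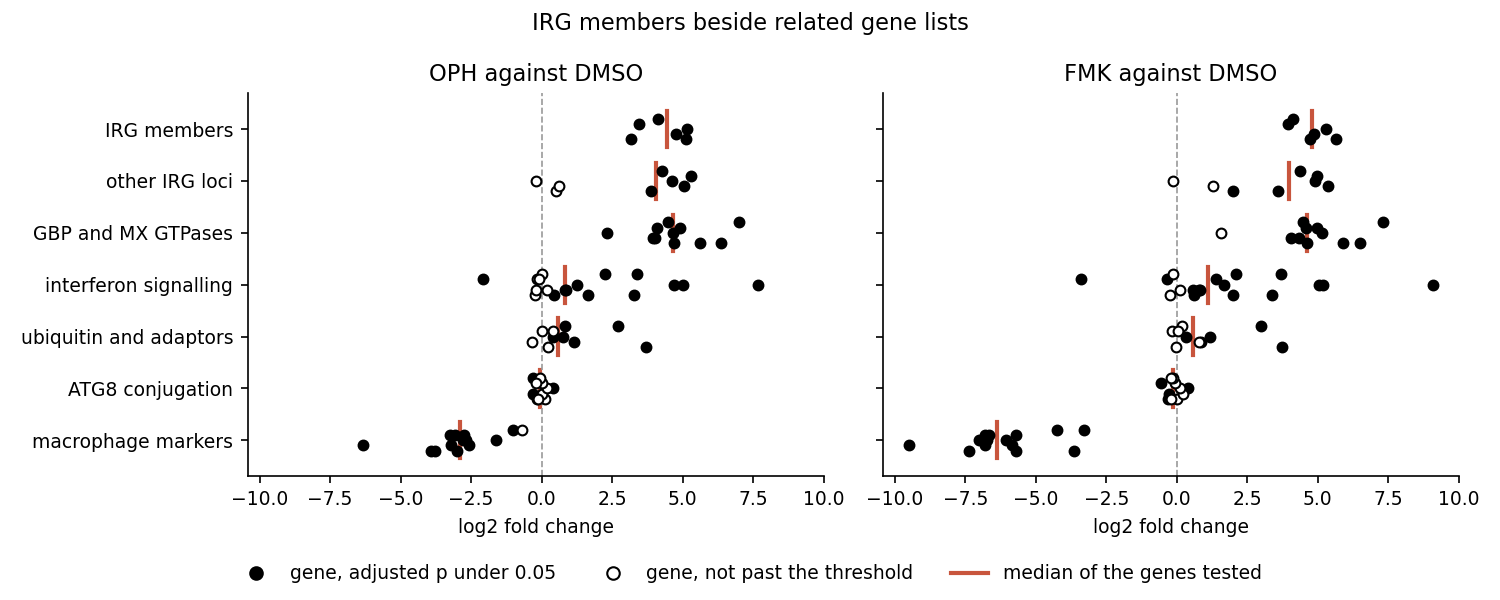
Log2 fold change of every tested gene of the IRG members, of the 5 related lists and of the macrophage markers, for OPH against DMSO and FMK against DMSO, with a line at each list's median. The IRG members, with Tgtp1 among them, have medians of 4.45 with OPH and 4.79 with FMK, and the ATG8 list has medians of -0.06 with OPH and -0.12 with FMK. The point of Ifnb1, with 0 counts in DMSO, depends on the prior count and is not a bound.

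Markers of other cells moved with the groups beside these results. All 14 macrophage markers fell with FMK (median -6.36) and 13 of 14 fell with OPH (-2.9), and 12 of 14 were higher with OPH than with FMK. Of all genes, 10.1% fell with FMK and 8.11% with OPH, and 4.2% were higher and 4.66% lower with OPH than with FMK. Several macrophage markers had too few FMK counts for the filter and passed it only through other groups, where they had to be high. The macrophage sum was thus lowest in the FMK libraries, where the IRG sum was 1827 to 2444 CPM, and highest in the DMSO libraries, where it was 48.3 to 106.7 CPM. The 8 markers of limb mesenchyme and fibroblasts summed to 19860 to 20287 CPM with OPH, 25975 to 27683 CPM with FMK and 25067 to 26703 CPM with DMSO. Against FMK, 0 of the 8 were higher and 5 were lower with OPH (median -0.42), in the direction of Irgm1 and Ifi47 in that comparison. T and NK cell markers were near 0 throughout. The 10 of them summed to 0 to 1.42 CPM with OPH, 0.62 to 1.29 CPM with FMK and 0.622 to 2.47 CPM with DMSO, and 8, 8 and 7 of them had no count in the group. Adipocyte markers summed to 2167, 2634 and 671.8 CPM with OPH, 180.0, 180.5 and 97.1 CPM with FMK and 2201, 1937 and 433.6 CPM with DMSO. Skeletal muscle markers summed to 137.2, 180.2 and 427.4 CPM with OPH, 64.0, 153.9 and 338.6 CPM with FMK and 128.2, 172.8 and 477.7 CPM with DMSO. Library 3 of each group therefore had the least adipocyte RNA, the most muscle RNA and the lowest IRG sum. The part of these cells in the IRG differences was not tested.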

How the data were processed

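The authors deposited a table of raw counts per gene for 9 libraries, made with a kit that reads 3' ends per the labels' protocols. Tools named in the submitters' processing notes, with no versions, are STAR, cutadapt, DESeq2, FastQC and MultiQC, and the build is mm10. Which program counted the reads, with what annotation and strand setting, and what became of reads with several matches was not given in the sources used here. The 99 spike-in rows (1 count in all) and 18 measurement columns, the authors' own comparisons and sums, were not used.

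Members and gene lists were chosen with earlier results of these data known. The text names every member. From each other list apart from the cell markers, it names the 3 genes with the smallest p with FMK. It also names any gene of those lists behind a count of 5 or fewer, and Ifnb1, Ifng, Stat2, Irf1 and Irf9. The cell marker lists are given as sums and counts, with no gene named. A further gene of the interferon list is not reported here. Some genes of the lists are named beyond that rule, chosen after their values were seen.

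The test was that of edgeR 4.0.16 (R 4.3.3, filterByExpr, TMM scaling, robust quasi-likelihood fit, 1 coefficient per group, all 9 libraries), two-sided, with Benjamini-Hochberg adjustment over 13255 genes and a threshold of 0.05. CPM are relative to TMM-scaled library sizes. Floors are 3 counts over a group, 0.147 to 0.167 CPM. Libraries of a group differed by more than counting noise, so none was a copy of another. Libraries with the same number deviated together from their group means (correlation 0.102 to 0.344 in 9 pairs, against -0.275 to 0.0147 between other numbers), so the numbers were taken to pair the samples. The pairing comes from the data, as the labels do not say what a number marks. The reported fit has no term for it, so its SEs, intervals and adjusted p leave the pairing out. With a replicate block, the SE for FMK against DMSO was 0.13 for Irgm2 and 0.18 for Igtp. Alternatives were the replicate block, DESeq2, limma-voom, other scaling and filters, fits of 2 groups, leaving out each library, and libraries 1 and 2 alone.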

Additional observations from a re-analysis of the deposited data

How the results depend on the processing

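The 5 abundant members kept their direction and their side of the threshold against DMSO, and Irgm1 and Ifi47 did so in OPH against FMK, in each of the 18 alternatives run. Over those, Irgm1 with OPH against FMK ranged from -0.52 to -0.36 and Ifi47 from -0.62 to -0.41. With a replicate block, 2139 genes differed between OPH and FMK, against 1175 without, and the block changed no call of a member. The regulator share gave an exact permutation p = 0.25 against DMSO with the pairing, the smallest 3 pairs can give. Leaving out 1 library gave 571 to 1386 genes for OPH against FMK, with 571 without OPH replicate 2, 712 without FMK replicate 1 and 709 without FMK replicate 2. The share difference between OPH and FMK was -0.148 to 1.31 points, below 0 without OPH replicate 2 (-0.148) and without FMK replicate 1 (-0.0995). Igtp in OPH against FMK was 0.002 with library size alone. Irgm2 there was -0.144 to 0.192 on leaving out 1 library, being -0.016 without OPH replicate 1, -0.038 without OPH replicate 2 and -0.144 without FMK replicate 3, and -0.048 in libraries 1 and 2 alone. None of these passed the threshold, and the cause was not tested. With no filter, Tgtp2 rose with FMK by 4.06 ± 1.48 (edgeR, adjusted p = 0.0481), and with OPH gave 2.82 ± 1.53 (adjusted p = 0.309). In the fit of OPH and DMSO alone Tgtp1 did not pass the filter, leaving 5 members called. Results for the Tgtp pair rest on few counts, as DMSO gave 3 in all, and the cause of the low counts was not tested.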

Other observations

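Within pairs of libraries of the same number, the rise over DMSO was steady for Irgm1 and not for Iigp1. Irgm1 with OPH was higher by 3.45, 3.44 and 3.44 on the log2 scale in pairs 1, 2 and 3, and with FMK by 3.84, 3.89 and 4.01. Iigp1 with OPH was higher by 4.57, 5.26 and 6.17, and with FMK by 4.72, 5.57 and 6.12. The DMSO libraries of those pairs had 44.3, 22.9 and 11.3 CPM of Iigp1, while Irgm1 had 19.6, 18.4 and 16.9 CPM. These are values of 3 pairs, with no test of the difference between both genes.

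By profile over the 9 libraries, each tested member had another gene nearer than its nearest fellow member. The nearest gene was Helz2 for Irgm1 (0.174), Gbp2 for Irgm2 (0.203), Oas1b for Igtp (0.231), Ifit1 for Iigp1 (0.224), Isg15 for Ifi47 (0.229) and Apol6 for Tgtp1 (0.398), in root mean square difference of centred log2 CPM.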
